A study of Rattus norvegicus with 18 samples.

Results

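Adenosine signalling was described here through 7 genes: the receptors Adora1, Adora2a and Adora2b, the nucleoside transporter Slc29a1, and the enzymes Nt5e, Adk and Ada. They were chosen by name as the receptors, carrier and enzymes that set adenosine tone, not by a rule on measured values. Earlier results of these data were known when they were chosen. The genes were found by matching the gene identifiers of the deposited count files to rat symbols. They are 7 of 38445 genes in the files, and all 7 of them passed the filter on low counts, as did 17637 genes in all. The tissue was the ventral tegmental area (VTA), a part of the midbrain whose dopamine neurons project to the striatum and cortex, and its RNA was sequenced in 18 male Sprague-Dawley rats, adult and of wild-type genotype per the labels. Each library came from 1 rat, so p-values measure the spread between animals.

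The 3 groups held 6 rats each. Withdrawal rats lived for 15 or 16 days on Lieber-DeCarli liquid diet that held 9% v/v ethanol, and tissue was collected 24 h after the ethanol was removed. Chronic ethanol rats drank the same ethanol diet for as long, and their tissue was collected at 0 h, with no withdrawal. Control rats drank the liquid diet without ethanol. All animals were male and of 1 strain, and the tissue was a dissected block rather than sorted cells, which limits the groups as a model. In such bulk tissue, fewer cells of a type and less RNA per cell cannot be told apart.

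Adenosine is made outside the cell from ATP by ectonucleotidases, the last of which, CD73, is encoded by Nt5e, and it leaves the extracellular space through equilibrative nucleoside transporters such as ENT1, encoded by Slc29a1. Inside the cell it is phosphorylated to AMP by adenosine kinase (Adk), an enzyme that in the adult brain is mostly astrocytic, or deaminated to inosine by adenosine deaminase (Ada). The A1 receptor (Adora1) couples to inhibitory G proteins and lowers transmitter release, whereas the receptors encoded by Adora2a and Adora2b couple to stimulatory G proteins. Acute ethanol is known to inhibit adenosine uptake through ENT1 in cultured cells.

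None of the 7 genes passed the test in any of the 3 comparisons at an adjusted p under 0.05 (edgeR), nor did any other gene (0% of those tested). The values that stood furthest apart were those of Nt5e, which averaged 1.56 times as much in withdrawal rats as in control rats, and Adk, which was lower in all 6 withdrawal rats than in any control rat. To show the sequence next to the genes these values concern, the 250 bases before the transcription start of Nt5e, Adk and Adora2b are given first, as RefSeq lists them for the GRCr8 assembly, with that of Adora1, the most abundant member, beside them. Capitals mark matches to the GC box GGGCGG or its complement CCGCCC, the element bound by Sp1 family factors.
Nt5e: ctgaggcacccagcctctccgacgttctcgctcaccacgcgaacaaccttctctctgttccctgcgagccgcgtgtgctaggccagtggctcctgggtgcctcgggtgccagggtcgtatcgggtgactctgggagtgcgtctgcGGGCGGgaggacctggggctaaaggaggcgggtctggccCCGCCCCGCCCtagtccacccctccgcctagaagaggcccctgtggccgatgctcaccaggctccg
Adk: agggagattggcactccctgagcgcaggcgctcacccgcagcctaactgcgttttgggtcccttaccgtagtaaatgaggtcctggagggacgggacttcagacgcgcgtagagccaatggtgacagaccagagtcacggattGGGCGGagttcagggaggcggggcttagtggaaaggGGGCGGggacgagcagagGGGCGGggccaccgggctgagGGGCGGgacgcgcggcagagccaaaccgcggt
Adora2b: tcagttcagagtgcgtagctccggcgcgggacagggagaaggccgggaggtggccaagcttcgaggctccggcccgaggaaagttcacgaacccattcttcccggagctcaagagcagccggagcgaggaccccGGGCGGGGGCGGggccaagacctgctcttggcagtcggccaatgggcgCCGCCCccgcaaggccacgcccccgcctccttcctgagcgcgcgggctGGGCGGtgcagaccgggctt
Adora1: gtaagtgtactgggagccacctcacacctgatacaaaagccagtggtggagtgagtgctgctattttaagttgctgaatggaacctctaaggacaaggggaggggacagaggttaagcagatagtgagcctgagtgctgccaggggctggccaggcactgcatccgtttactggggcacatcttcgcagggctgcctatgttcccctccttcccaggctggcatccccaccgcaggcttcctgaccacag
These windows lie at chr8:98150675-98150924 on the plus strand, chr15:3295746-3295995 on the minus strand, chr10:47439462-47439711 on the plus strand and chr13:48246832-48247081 on the minus strand, in the order shown. The table of promoters held 6 of the 7 members. The GC box was matched 3 times before Nt5e, 4 times each before Adk and Adora2b, 3 times before Ada and 2 times before Slc29a1, with matches counted on both strands and allowed to overlap. It was not matched before Adora1. Of all 33469 promoter windows of this length, 30.47% held at least 1 match. The cyclic AMP response element core TGACG, the hypoxia response core ACGTG and the TATA box TATAAA were not matched in any of the 6 windows, against 18.22%, 16.57% and 12.93% of all windows. The Adora1 window had a GC content of 56.8% and the other 5 windows ranged between 63.6% and 71.2%. A match describes these letters and is not a measured binding site.

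In the Rnor_6.0 assembly of the count files, Adora1 lies at chr13:51042111-51076913 on the minus strand, Adora2a at chr20:14265251-14282873 on the minus strand and Adora2b at chr10:48569563-48586366 on the plus strand. Slc29a1 lies at chr9:17784468-17799008 on the plus strand and Nt5e at chr8:95969002-96012733 on the plus strand. Adk covers chr15:3033535-3435888 and Ada chr3:160115840-160139947, both on the minus strand. The exons of none of the 7 genes overlapped an exon of another annotated gene on either strand.

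Libraries held 29566318 to 45079983 counts in genes, so that 3 counts correspond to at most 0.104 CPM, the count per 1000000 counts of the library. CPM values here are scaled by TMM factors, which align the libraries on the bulk of their genes. Every member was counted in every rat, the lowest being Ada with 49 counts in a control rat. Of the marker lists, which check what the tissue block held, the dopamine neuron list summed to 375 to 2790 CPM in withdrawal rats, 439 to 3214 CPM in chronic ethanol rats and 1052 to 3349 CPM in control rats. Rats 5 (control) and 8 (chronic ethanol) carried hindbrain Hox RNA, summing to 61.5 and 54.2 CPM where no other rat exceeded 4.95 CPM, although Hoxa2 and Hoxa3 were at 0 in all rats. Withdrawal rat 13 carried pineal RNA, with a list sum of 16372 CPM against at most 10.4 CPM elsewhere, led by Tph1 at 14990 CPM, and withdrawal rat 17 had the lowest dopamine neuron sum. Results that rest on these 4 rats are given with and without them. The library names hold 3 different first index sequences: one in control rats 1 to 6 and chronic ethanol rats 7 and 8, one in chronic ethanol rats 9 to 12 and withdrawal rats 13 to 16, and one in withdrawal rats 17 and 18. Where the first index enters as a term below, chronic ethanol against control therefore compares only rats 7 and 8 with the controls. Withdrawal against control then reaches the controls only through those rats.

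Per kilobase of exon, which allows levels to be compared between genes, Adora1 was the most abundant member, with a mean of 49.9 CPM per kb over the 18 rats, above Adk in 18 of 18 rats. Its level was higher than that of 91.81% of the genes tested. Adk followed with 32.7 CPM per kb and was above Nt5e in 17 of 18 rats, the exception being withdrawal rat 13. Nt5e (10.9 CPM per kb) and Slc29a1 (8.46 CPM per kb) were the neighbours that were not separated: Nt5e was higher in 12 of 18 rats. Adora2b followed with 3.78 CPM per kb, Ada with 1.43 CPM per kb and Adora2a with 0.644 CPM per kb, each above the next in at least 17 of 18 rats. Adora2a was thus the lowest member per length, higher than 18.76% of the genes tested. The annotated exon length of Adora2a, 6666 bases, was the longest of the 7 and enters this value. The plot of levels per length shows the same order.

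**Figure D1:**
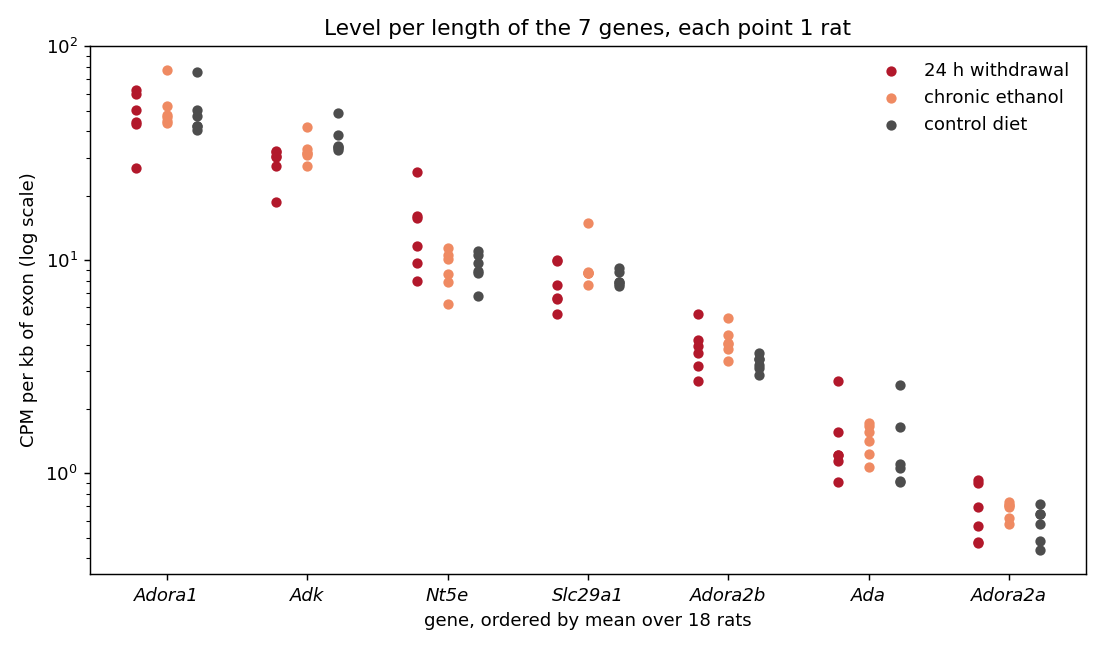
Level of the 7 genes in CPM per kb of exon (log axis), ordered by the mean over 18 rats; each point is 1 rat, with withdrawal, chronic ethanol and control rats side by side. Adora1 and Adk lie at the top with means of 49.9 and 32.7 CPM per kb, Nt5e and Slc29a1 share one range, and Adora2a is lowest with a mean of 0.644 CPM per kb.

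Among the 3 receptors, Adora1 made up 91.1% ± 1.46 of the summed level per length in withdrawal rats, 91.3% ± 1.17 in chronic ethanol rats and 92.5% ± 1.64 in control rats (SD, n = 6 each). Adora2b made up 7.59% ± 1.48 in withdrawal rats, 7.45% ± 1.02 in chronic ethanol rats and 6.38% ± 1.33 in control rats (SD, n = 6 each). Adora2a did not exceed 1.57% in any rat. Adora1 thus made up most of the receptor RNA in each of the 18 VTA samples, and the receptor shares of the 3 groups overlapped. The remaining adenosine receptor gene, Adora3, averaged 0.00271 CPM, below the level of 3 counts, and was not tested.

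Adora1 ranged between 76.0 and 176 CPM in withdrawal rats (median 133), between 123 and 218 CPM in chronic ethanol rats (median 133), and between 114 and 213 CPM in control rats (median 126). The groups overlapped almost entirely, and in the chronic ethanol and control groups 1 rat each, rats 8 and 5, stood far above the others. Those are the 2 rats with hindbrain RNA, and the pineal-bearing rat 13 was the lowest of all. The fitted log2 change was -0.05 ± 0.20 (SE) in withdrawal against control rats, with a 95% interval of -0.47 to 0.36 (edgeR quasi-likelihood test, Benjamini-Hochberg adjusted p = 0.934). It was 0.07 ± 0.20 in chronic ethanol against control rats (edgeR, adjusted p = 0.999) and -0.12 ± 0.20 in withdrawal against chronic ethanol rats (edgeR, adjusted p = 0.785). Without rats 5, 8, 13 and 17, Adora1 averaged 139 ± 21.2 CPM in withdrawal (SD, n = 4), 132 ± 9.75 CPM in chronic ethanol (SD, n = 5) and 125 ± 11.4 CPM in control rats (SD, n = 5), and the coefficient of variation over these 14 rats was 10.9%, against 24.7% over all 18. The log2 change in withdrawal against control rats was then 0.14 (unadjusted p = 0.144), and with all 18 rats and the first index as a term it was 0.24 (unadjusted p = 0.444).

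Adora2a, the receptor that in the striatum marks indirect pathway neurons, was counted at 3.15 to 6.20 CPM in withdrawal rats (median 4.20), 3.86 to 4.89 CPM in chronic ethanol rats (median 4.69) and 2.91 to 4.81 CPM in control rats (median 4.08). The highest values were those of withdrawal rats 17 and 18, and the 3 groups overlapped. The log2 change was 0.20 ± 0.18 (SE) in withdrawal against control rats (edgeR, adjusted p = 0.678), 0.21 ± 0.18 in chronic ethanol against control rats (edgeR, adjusted p = 0.999) and -0.00 ± 0.18 in withdrawal against chronic ethanol rats (edgeR, adjusted p = 0.992). The first of these was 0.087 without rat 17, 0.090 without rat 18, 0.13 without control rat 2, 0.12 without rats 5, 8, 13 and 17 and 0.036 with the first index as a term. For chronic ethanol against control rats it was 0.13 without control rat 2 and also without the 4 rats. Across rats the gene went with the summed endothelial markers (Spearman rho 0.71 over 18 rats and 0.69 without rats 5, 8, 13 and 17) and not with the striatal neuron list (rho -0.18 and -0.03). The highest striatal sum, 551 CPM in the pineal-bearing rat 13, was mostly Penk (282 CPM) and Rgs9 (183 CPM). Drd2 of that list was lowest in rat 17 (11.3 CPM), the rat with the lowest dopamine neuron sum. The list sum therefore cannot be read as striatal neuron content here. The rho values are descriptions over rats of 3 groups that share depth scaling, and the part of vessel content in the Adora2a values was not tested. Rats 17 and 18 also had the highest endothelial sums, each 400 CPM when rounded, against 248 to 360 CPM in the other withdrawal rats. The markers of the list differed in this. Within the withdrawal group, Flt1 (213 CPM in each, 136 to 170 CPM in the others) and Esam were highest in these rats, and Pecam1 in rat 18. Cldn5 and Cdh5 were highest in rat 16. Tie1 was lower in rats 17 and 18 (26.9 and 21.8 CPM) than in rats 14 to 16.

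Adora2b, a low-affinity receptor, had 4.97 to 10.2 CPM in withdrawal rats (median 7.02), 6.19 to 9.84 CPM in chronic ethanol rats (median 7.44) and 5.30 to 6.77 CPM in control rats (median 6.13). Of the chronic ethanol rats, 5 of 6 were above every control rat, rat 11 being the exception. The fitted log2 change in chronic ethanol against control rats was 0.34 ± 0.15 (SE), a 1.27-fold difference with a 95% interval of 1.02 to 1.57. Its unadjusted p was 0.0316 and its adjusted p 0.834 (edgeR), so it did not pass the test. The change was 0.26 without rat 8, the highest of the chronic ethanol rats. With the first index as a term, which leaves only rats 7 and 8 to compare with the controls, it was 0.51. In 4 of 28 other settings its unadjusted p was not under 0.05. These settings include a looser threshold on the adjusted p, which leaves the unadjusted p as it was. They also include fits without a withdrawal rat, which belongs to neither group compared here. Adora2b was the 1 of 7 members with an unadjusted p under 0.05 in this comparison, where 5.84% of all genes were under it. In withdrawal against control rats the log2 change was 0.24 ± 0.15 (edgeR, adjusted p = 0.573), but 0.10 without rat 17, the highest withdrawal rat, and 0.40 with the first index as a term. In withdrawal against chronic ethanol rats it was -0.11 ± 0.15 (edgeR, adjusted p = 0.738).

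**Figure D2:**
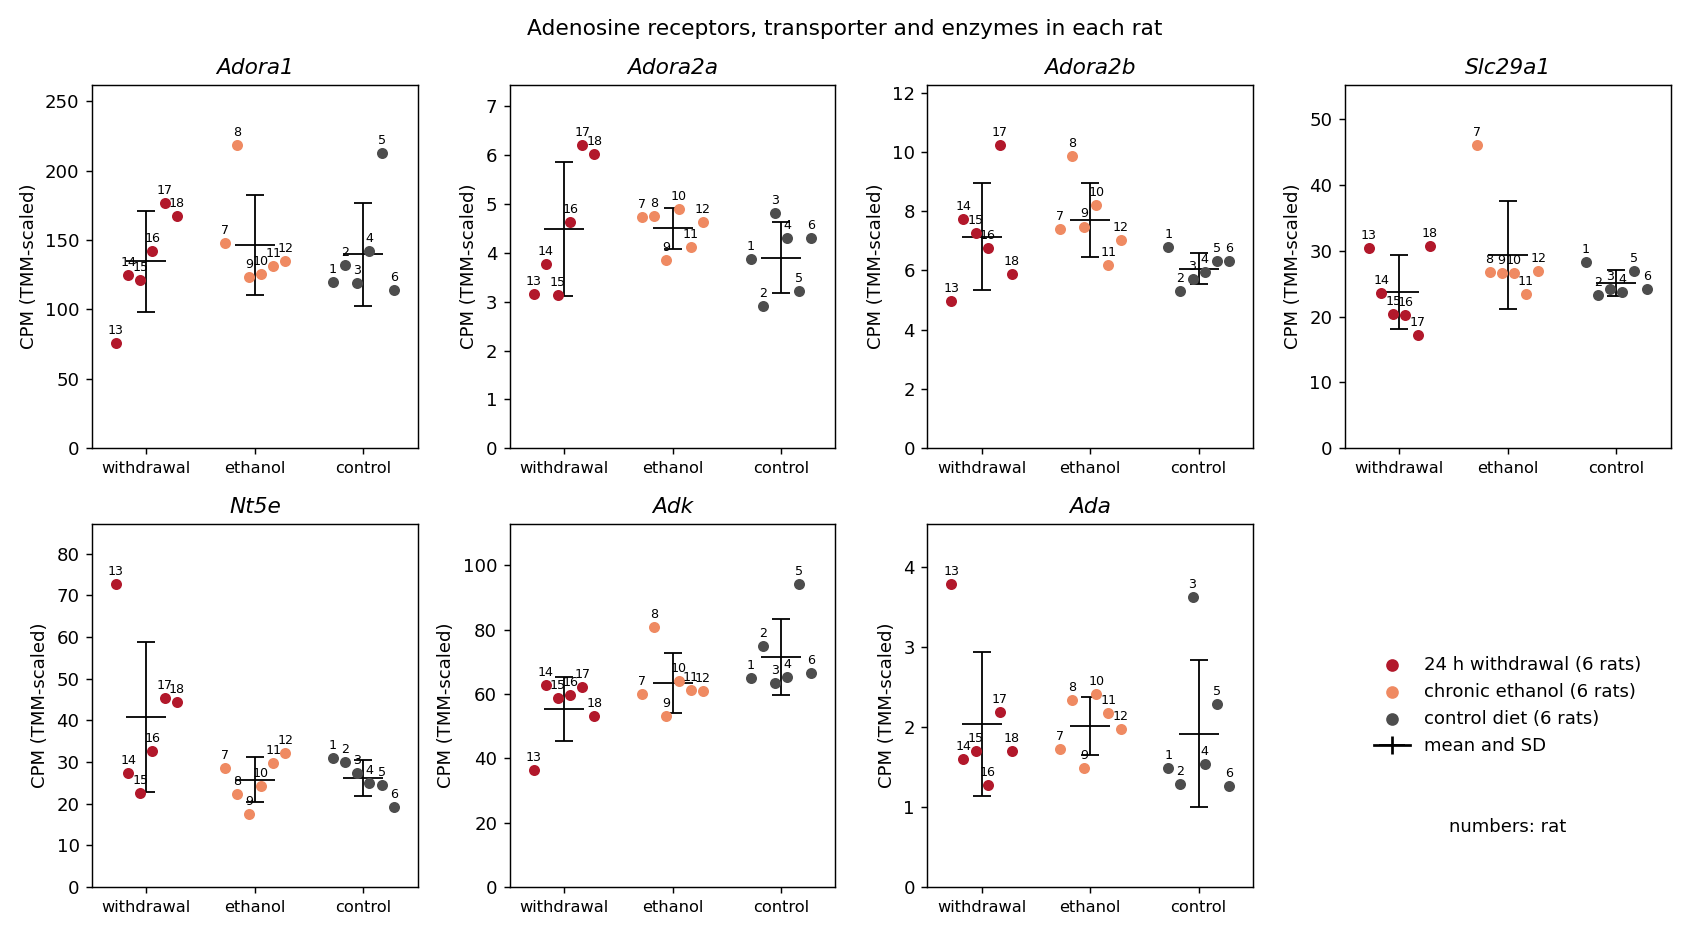
CPM of each of the 7 genes in each rat, withdrawal left, chronic ethanol in the middle and control right; points are single rats with their number, and the lines show the mean and SD of 6 rats. Adk is the gene in which all 6 withdrawal rats lie below every control rat, and Nt5e the one in which 4 of 6 withdrawal rats lie above every control rat.

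The transporter gene Slc29a1 had 17.1 to 30.7 CPM in withdrawal rats (median 21.9), 23.4 to 46.0 CPM in chronic ethanol rats (median 26.7) and 23.2 to 28.3 CPM in control rats (median 24.2). Chronic ethanol rat 7 alone reached 46.0 CPM, while the other 5 rats of its group were within 23.4 to 27.0 CPM. Of the withdrawal rats 3 were below every control rat and 2 above every one, so this group spread to both sides of the controls. The log2 change was 0.23 ± 0.16 (SE) in chronic ethanol against control rats (edgeR, adjusted p = 0.974), and without rat 7 it was 0.05 (adjusted p = 0.9998). With the first index as a term it was 0.53, but that value compares only rats 7 and 8 with the controls. In withdrawal against chronic ethanol rats it was -0.31 ± 0.16, with a 95% interval of -0.65 to 0.03 (edgeR, adjusted p = 0.365). Without rat 7 that value was -0.14, and with the first index as a term -0.13. In withdrawal against control rats the log2 change was -0.08 ± 0.16 (edgeR, adjusted p = 0.872), and with the first index as a term it was 0.40 (unadjusted p = 0.169). The latter value also rests on rats 7 and 8.

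Nt5e, which encodes the enzyme that makes extracellular adenosine from AMP, varied most of the 7 genes, with a coefficient of variation of 41.2% over the 18 rats. It had 22.4, 27.4, 32.7, 44.3, 45.3 and 72.6 CPM in withdrawal rats. Chronic ethanol rats lay between 17.5 and 32.1 CPM (median 26.4) and control rats between 19.1 and 30.9 CPM (median 26.1). Rats 13, 16, 17 and 18 of the withdrawal group were above every rat of the other 2 groups, and rats 14 and 15 were inside the control range. The means were 40.8 ± 18.1 CPM in withdrawal, 25.7 ± 5.46 CPM in chronic ethanol and 26.1 ± 4.30 CPM in control rats (SD, n = 6 each).

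The log2 change of Nt5e in withdrawal against control rats was 0.64 ± 0.23 (SE), a 1.56-fold difference with a 95% interval of 1.12 to 2.19. Its unadjusted p was 0.0120 and its adjusted p 0.428 (edgeR), so the difference did not pass. In withdrawal against chronic ethanol rats it was 0.66 ± 0.23, or 1.59-fold with a 95% interval of 1.13 to 2.22 (edgeR, unadjusted p = 0.00995, adjusted p = 0.215). Both comparisons rest on the same withdrawal rats. In chronic ethanol against control rats the log2 change was -0.02 ± 0.23 (edgeR, adjusted p = 0.999). Without rat 13, the rat with pineal RNA, the log2 change in withdrawal against control rats was 0.40 (unadjusted p = 0.0480), and without rats 5, 8, 13 and 17 it was 0.26 (unadjusted p = 0.221). Against chronic ethanol rats it was 0.42 without rat 13 (unadjusted p = 0.0387) and 0.26 without the 4 rats (unadjusted p = 0.216). With all rats and the first index as a term, the log2 change was 0.54 in withdrawal against control rats (unadjusted p = 0.242) and 0.58 in withdrawal against chronic ethanol rats (unadjusted p = 0.0666). The means without rats 5, 8, 13 and 17 were 31.7 ± 9.39 CPM in withdrawal (SD, n = 4), 26.4 ± 5.79 CPM in chronic ethanol (SD, n = 5) and 26.4 ± 4.72 CPM in control rats (SD, n = 5). The 2 highest rats after rat 13 were rats 17 and 18, whose first index no other rat has.

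Adk, whose enzyme clears adenosine by phosphorylation, had 36.3, 53.2, 58.9, 59.6, 62.0 and 62.7 CPM in withdrawal rats. Chronic ethanol rats lay between 53.1 and 80.9 CPM (median 61.1), and control rats between 63.4 and 94.2 CPM (median 65.8). All 6 withdrawal rats were below every control rat, by a narrow gap: the highest withdrawal rat, rat 14, had 62.7 CPM and the lowest control rat, rat 3, had 63.4 CPM. Of the chronic ethanol rats 4 of 6 were also below every control rat. The means were 55.5 ± 9.95 CPM in withdrawal, 63.4 ± 9.33 CPM in chronic ethanol and 71.5 ± 11.8 CPM in control rats (SD, n = 6 each). Over all genes tested, 0.38% had all withdrawal rats below all control rats, and 0.607% had no overlap between these groups in either direction.

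The log2 change of Adk in withdrawal against control rats was -0.37 ± 0.13 (SE), which is 0.776 times the control level with a 95% interval of 0.640 to 0.940. Its unadjusted p was 0.0124 and its adjusted p 0.428 (edgeR). In this comparison Nt5e and Adk were the 2 of 7 members with an unadjusted p under 0.05, against 9.82% of all genes. The log2 change of Adk was -0.17 ± 0.13 in chronic ethanol against control rats (edgeR, adjusted p = 0.985) and -0.19 ± 0.13 in withdrawal against chronic ethanol rats (edgeR, adjusted p = 0.476). The change in chronic ethanol against control rats was -0.080 without control rat 5 and -0.022 with the first index as a term. The change in withdrawal against chronic ethanol rats was -0.10 without rat 13, -0.11 without chronic ethanol rat 8 and -0.031 without rats 5, 8, 13 and 17. Without rats 5, 8, 13 and 17, Adk averaged 58.6 ± 3.94 CPM in withdrawal (SD, n = 4), 59.9 ± 4.10 CPM in chronic ethanol (SD, n = 5) and 67.0 ± 4.56 CPM in control rats (SD, n = 5). The log2 change in withdrawal against control rats was then -0.20 (unadjusted p = 0.00773, edgeR adjusted p = 0.437), smaller but with less spread between rats. Control and withdrawal libraries share no first index, so for all 7 genes the index and the group cannot be told apart in this comparison. With the first index as a term, which joins these groups through the chronic ethanol rats, the log2 change was -0.16 (unadjusted p = 0.528).

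Red blood cell RNA moved with Adk. Its 5 genes summed to 93.5 to 175 CPM in withdrawal rats, 53.0 to 237 CPM in chronic ethanol rats and 186 to 527 CPM in control rats, so that the withdrawal and control ranges of this list did not overlap either. All 5 of its genes had lower fitted values in withdrawal than in control rats with an unadjusted p under 0.05, none with an adjusted one (edgeR), and Hbb ranged between 39.9 and 80.6 CPM in withdrawal rats and between 81.4 and 217 CPM in control rats. Over the rats, Adk and the red blood cell sum had a Spearman rho of 0.76 (n = 18) and of 0.72 without rats 5, 8, 13 and 17 (n = 14). These values pool the groups and were the highest of Adk with any of the marker lists. The pattern did not hold among control rats. Control rat 5 had the highest Adk (94.2 CPM) and the lowest red blood cell sum (186 CPM) of that group. Control rat 3 had the lowest Adk (63.4 CPM) and a sum of 509 CPM. The astrocyte list, which stands for the cell type that holds most adenosine kinase, summed to 1739 to 4111 CPM in withdrawal, 2108 to 5651 CPM in chronic ethanol and 2729 to 5364 CPM in control rats, and its groups overlapped. Its rho with Adk was 0.60 (n = 18) and 0.34 (n = 14). The part of blood or astrocyte content in the Adk values was not tested. The plot of members against marker sums shows Adk beside the red blood cell sum by rat.

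**Figure D3:**
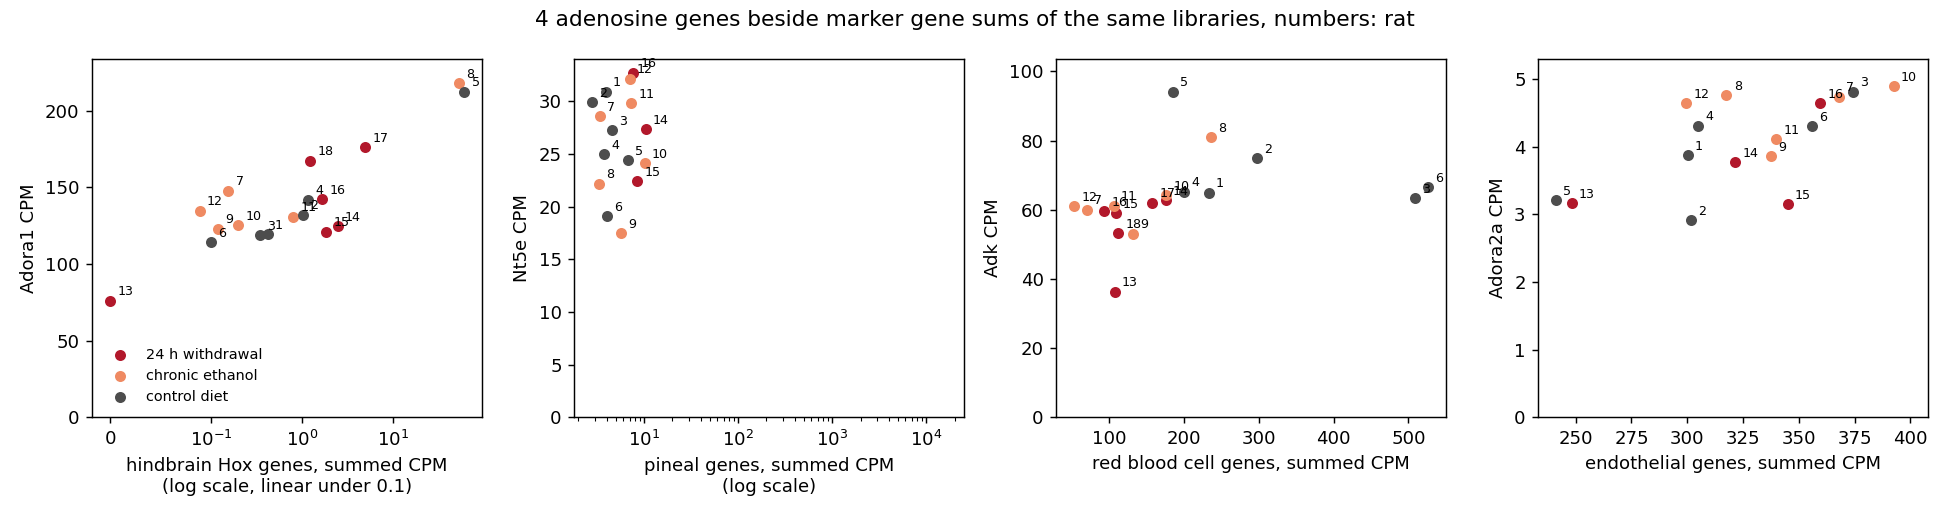
CPM of 4 members (y axes) against summed CPM of 1 marker list each (x axes, on a log scale for the hindbrain and pineal lists), each point 1 rat with its number, coloured by group. Each y axis ends a little above the highest control rat. Nt5e of withdrawal rats 13 (72.6 CPM), 17 (45.3 CPM) and 18 (44.3 CPM) and Adora2a of rats 17 (6.20 CPM) and 18 (6.02 CPM) lie beyond it and are not drawn. Rats 8 and 5 stand apart in Adora1 and hindbrain RNA. Adora1 against hindbrain markers has a Spearman rho of 0.63 over 18 rats and 0.21 without rats 5, 8, 13 and 17. For Nt5e against pineal markers these values are 0.07 and -0.05. Adk against red blood cell markers has a Spearman rho of 0.76 over 18 rats, and Adora2a against endothelial markers a rho of 0.71.

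Ada, the deaminase, was low throughout, at 1.27 to 3.78 CPM in withdrawal rats (median 1.70), 1.49 to 2.41 CPM in chronic ethanol rats (median 2.07) and 1.26 to 3.62 CPM in control rats (median 1.51). Its highest values were those of withdrawal rat 13, which has pineal RNA and choroid plexus markers summing to 340 CPM, and of control rat 3, which had the highest meningeal fibroblast sum, 453 CPM. Of the choroid plexus sum of rat 13, Ttr alone was 319 CPM. Kl and Clic6 were also highest in rat 13, but Folr1, Kcnj13 and Prlr were higher in other rats. The part of those tissues in Ada was not tested. The log2 change was 0.09 ± 0.29 (SE) in withdrawal against control rats (edgeR, adjusted p = 0.924), 0.07 ± 0.28 in chronic ethanol against control rats (edgeR, adjusted p = 0.999) and 0.02 ± 0.28 in withdrawal against chronic ethanol rats (edgeR, adjusted p = 0.983). Without rats 5, 8, 13 and 17 the change in withdrawal against control rats was -0.24 (unadjusted p = 0.427). Per length, Adk exceeded Ada in every rat, by 6.91 to 33.7 times in withdrawal, 19.1 to 25.7 times in chronic ethanol and 12.6 to 42.0 times in control rats.

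**Figure D4:**
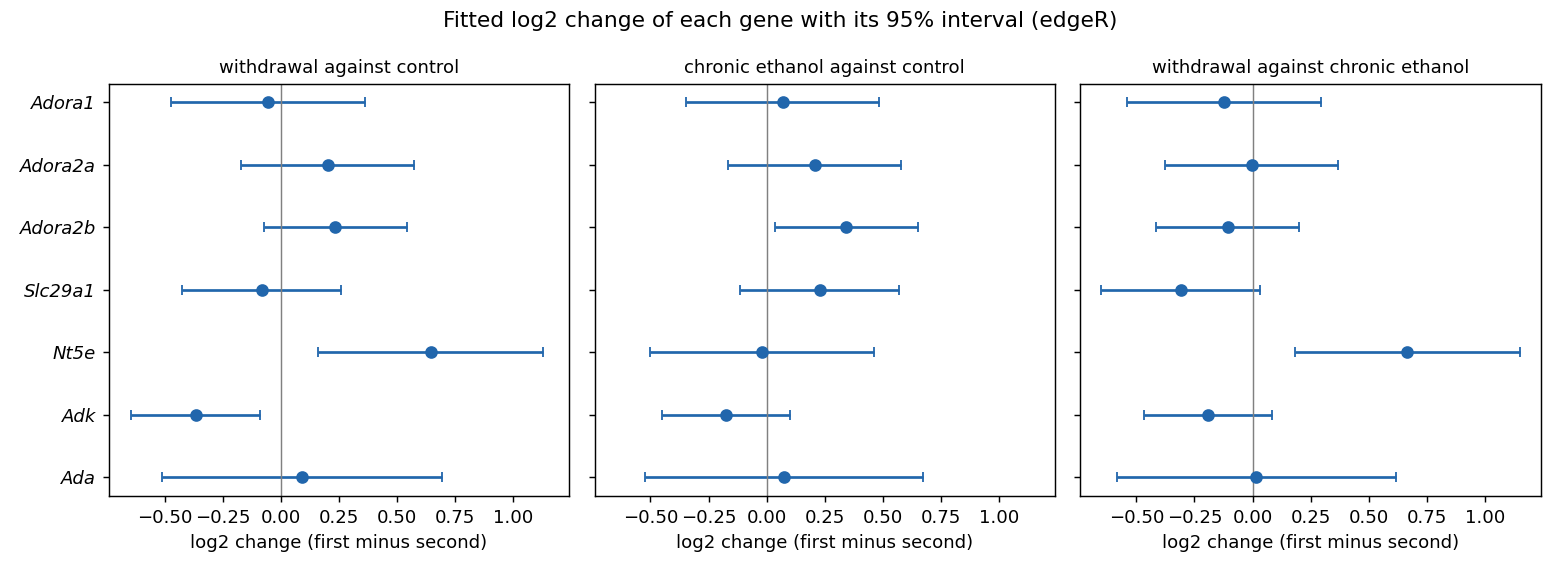
Fitted log2 change of each gene with its 95% interval (edgeR) in the 3 comparisons, the first-named group minus the second. The intervals of Nt5e and Adk in withdrawal against control, Adora2b in chronic ethanol against control and Nt5e in withdrawal against chronic ethanol lie off 0; no adjusted p is under 0.05.

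Over the list, 0 of 7 genes were called in withdrawal against control, in chronic ethanol against control or in withdrawal against chronic ethanol at an adjusted p under 0.05, and so were 0 of all 17637 genes, or 0%, in each comparison. At an unadjusted p under 0.05, withdrawal against control held 2 members and 1732 genes in all. Chronic ethanol against control held 1 member and 1030 genes. Withdrawal against chronic ethanol held 1 member, Nt5e, and 2704 genes, which is 15.3% of the genes tested. DESeq2 called 47 genes in withdrawal against control, 46 in chronic ethanol against control and 301 in withdrawal against chronic ethanol, and limma-voom called 0, 2 and 0, with no member among any of them. The median log2 change of the 7 members was 0.09 in withdrawal against control (0.01 over all genes tested), 0.07 in chronic ethanol against control (-0.00 over all genes) and -0.11 in withdrawal against chronic ethanol (0.02 over all genes). The withdrawal and chronic ethanol groups did not overlap in 1.36% of all genes and in 0 of the 7 members, and the chronic ethanol and control groups in 0.93% of all genes and again in 0 members.

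Within one first index the comparisons hold fewer rats, and the differences in mean log2 CPM are given with no test. Between chronic ethanol rats 7 and 8 and the 6 control rats of the same index, the difference was 0.49 for Adora2b, where it was 0.33 over all rats of these groups. It was 0.48 for Slc29a1 (0.19 over all), 0.40 for Adora1 (0.07 over all) and 0.30 for Adora2a (0.22 over all). It was -0.03 for Nt5e (-0.03 over all), -0.02 for Adk (-0.17 over all) and 0.17 for Ada (0.16 over all). Rat 8 carried hindbrain RNA and had the highest Adora1 (218 CPM) and Adora2b (9.84 CPM) of its group. Rat 7 had the highest Slc29a1 (46.0 CPM), and control rat 5 carried hindbrain RNA too. The differences within this index were not computed without these rats. Between the 4 withdrawal and 4 chronic ethanol rats of the other shared index, the difference was 0.46 for Nt5e (0.58 over all) and 0.11 without rat 13. For the other 6 members it lay between -0.26 for Adora2a (-0.05 over all) and -0.06 for Ada (-0.06 over all). Without rat 13 these 6 members lay between -0.38 for Ada and 0.016 for Adk, a comparison added after seeing the data.

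Genes that act with the members were described from 5 lists. The first list held Adora3 and G protein genes, and 6 of its 7 genes were tested, all but Adora3. Tested were also 3 of 6 other nucleoside transporters and 6 of 9 ectoenzymes. Of intracellular adenosine and AMP metabolism 12 of 14 genes were tested, and of the ATP receptors 13 of 13. None of these passed the test in any comparison, so 0 were higher and 0 lower at an adjusted p under 0.05. Some of the genes left untested were near 0, among them Slc29a2, Entpd1, Entpd8 and Hprt1. Hprt1 is a salvage enzyme that every cell uses, and it averaged 0.0118 CPM, so a value near 0 in these files is given as listed and not read as a silent gene.

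The gene of these lists with the lowest p was Entpd2, an ectonucleotidase that hydrolyses ATP on the cell surface. It ranged between 18.2 and 29.5 CPM in withdrawal rats (median 24.0), between 27.1 and 47.3 CPM in chronic ethanol rats (median 32.1) and between 26.5 and 29.9 CPM in control rats (median 28.1). Of the withdrawal rats, 5 of 6 were below every chronic ethanol rat. Its log2 change was -0.49 ± 0.12 (SE) in withdrawal against chronic ethanol rats (edgeR, adjusted p = 0.115), 0.26 ± 0.12 in chronic ethanol against control rats (edgeR, adjusted p = 0.838) and -0.23 ± 0.12 in withdrawal against control rats (edgeR, adjusted p = 0.535). DESeq2 called the first of these differences (adjusted p = 0.0125). Ak1, an adenylate kinase, had a log2 change of -0.18 ± 0.08 in withdrawal against control rats (edgeR, adjusted p = 0.475), and -0.092 without rats 5, 8, 13 and 17.

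In the intracellular list, Ahcyl1, a homologue of the enzyme that frees adenosine from S-adenosylhomocysteine, ranged between 474 and 580 CPM in withdrawal rats, 580 and 666 CPM in chronic ethanol rats and 562 and 594 CPM in control rats. Of the withdrawal rats 5 of 6 were below every chronic ethanol rat, and the log2 change was -0.19 ± 0.05 (SE; edgeR, adjusted p = 0.123). It too was called by DESeq2 (adjusted p = 0.00635). Nt5c1a, which makes adenosine from AMP inside the cell and was singled out after its values were seen, ranged between 26.4 and 30.03 CPM in 5 of the withdrawal rats, with rat 13 apart at 13.2 CPM, against 30.7 to 35.2 CPM in chronic ethanol rats. The groups did not overlap, as was the case for 1.36% of all genes. Its log2 change was -0.31 ± 0.15 (edgeR, adjusted p = 0.324), but -0.17 without rat 13 and -0.20 without rats 5, 8, 13 and 17. Gda, a guanine deaminase, had a fitted log2 change of 2.17 in withdrawal against control rats that rested on rat 13 with 53.7 CPM: without it the change was -0.02.

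Of the ATP receptors, P2ry14, a receptor for UDP-sugars, had 2.74 to 4.09 CPM in withdrawal, 2.78 to 3.99 CPM in chronic ethanol and 1.65 to 3.28 CPM in control rats. Its log2 change was 0.50 ± 0.16 (SE) in chronic ethanol against control rats (edgeR, adjusted p = 0.644), with 6 of 6 rats above the control mean. P2rx3, an ATP-gated channel, had 1.38 to 3.34 CPM in withdrawal, 1.09 to 2.61 CPM in chronic ethanol and 2.36 to 3.13 CPM in control rats, and its log2 change in chronic ethanol against control rats was -0.60 ± 0.20 (edgeR, adjusted p = 0.716). Gnai3, an inhibitory G protein subunit of the kind the A1 receptor uses, had a log2 change of 0.23 ± 0.10 in withdrawal against chronic ethanol rats (edgeR, adjusted p = 0.299), and 0.12 without rat 13, which had 91.7 CPM where the other 5 withdrawal rats had 58.9 to 66.5 CPM. Its relative Gnai2 had 0.10 ± 0.06 in withdrawal against control rats (edgeR, adjusted p = 0.564). Slc28a2, a concentrative nucleoside transporter, had 0.23 ± 0.12 in withdrawal against control rats (edgeR, adjusted p = 0.526), and 0.087 with the first index as a term. Slc29a4, a transporter that also carries monoamines, had 0.18 ± 0.18 in withdrawal against chronic ethanol rats (edgeR, adjusted p = 0.647), but 0.071 without chronic ethanol rat 8 and 0.047 without rats 5, 8, 13 and 17. The plot of all listed genes shows these values beside the rest of each list.

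**Figure D5:**
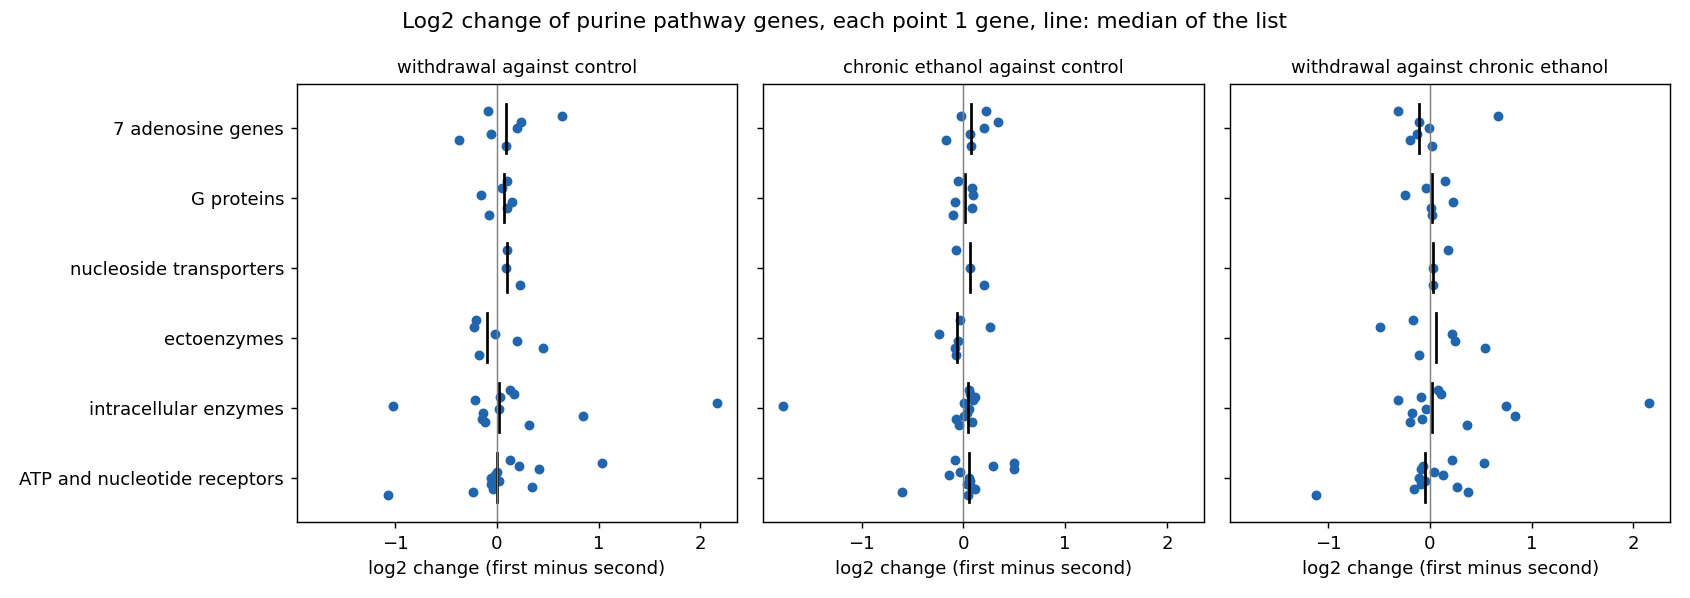
Fitted log2 change (edgeR) of the genes of each list in the 3 comparisons, one point per gene with a line at the median of the list, the first-named group minus the second. Most points lie near 0, Entpd2 lies at -0.49 in withdrawal against chronic ethanol, and Gda at 2.17 in withdrawal against control rests on 1 rat.

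The genes whose level over the 18 rats was most like each member were found by Spearman's rho of log2 CPM among 14357 genes. For Adora1 they were Fam131b (rho 0.88), Deptor and Ttc33, and for Adora2a Kcmf1 (0.85), Sbds and Med4. For Adora2b they were Ndufa4l2 (0.85), Sap30l and C13h1orf21, and for Slc29a1 Kcnh6 (0.86) and Crmp1. Nt5e was most like Mbd1 (0.82), Atf1 and Rbm17, Adk most like Uqcrfs1 and Osbpl1a (0.88 each), and Ada most like Plcd4 (0.87), Rbms2 and Ston1. Without rats 5, 8, 13 and 17, only Kcmf1 for Adora2a, Ndufa4l2 for Adora2b and Plcd4 for Ada stayed among the 3 most alike of their member. Between the members themselves rho ranged from -0.37 for Nt5e with Adk to 0.42 for Adora1 with Adora2a. Without rats 5, 8, 13 and 17 these values were -0.11 and 0.39, and over those 14 rats rho ranged from -0.36 for Adora2b with Nt5e to 0.61 for Adora1 with Nt5e. These values describe 18 rats of 3 groups that share depth scaling and tissue make-up.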

How the data were processed

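RNA from 18 rats was sequenced in paired ends from stranded mRNA libraries, per the labels' protocols. The deposited files hold raw read counts per gene and the exon length per gene in bases. Per the submitters' processing notes, STAR 2.5.2a was used with the Rnor_6.0 build, and the file headers name featureCounts 1.5.0. Counts were tested as deposited with edgeR 4.0.16 in R 4.3.3 (TMM factors, filterByExpr, quasi-likelihood fit over all 18 libraries, two-sided, Benjamini-Hochberg over 17637 genes, called at an adjusted p under 0.05). The estimated biological coefficient of variation was 0.270. The step was tested on simulated data. DESeq2 1.42.0, limma-voom 3.58.1, other filters and factors, a first index term and leaving out rats were alternatives. Symbols for 29322 of 38445 gene identifiers came from RefSeq's rat gene table. CPM is the count over the TMM-scaled library size. No pair of libraries agreed within sampling noise (153 pairs). The floor of 3 counts covers counting error only.

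Members, lists and motifs were chosen with earlier results of these data known. Beside the 7 members, the 2 genes of lowest p were named in each list with no gene past the threshold, and the 3 genes most alike each member by Spearman's rho (log2 CPM, prior count 2, mean of at least 1 CPM); 1 such gene each for Slc29a1 and Adk is not reported here. Marker lists were given by summed CPM. The listed symbol Acpp matched no named gene.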

Additional observations from a re-analysis of the deposited data

Results flagged for a closer look

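In 6 of the 21 sets of 6 rats formed by the 7 genes and 3 groups, 1 rat stood apart from the other 5 by Dixon's criterion. Chance flags about 1 in 20 independent groups, but the same rats enter several of these sets. The share flagged over all genes tested was not computed, so the count cannot be read as particular to the 7 genes. Adora1 was 218 CPM in chronic ethanol rat 8, with the other 5 rats of the group between 123 and 148 CPM, and it was 213 CPM in control rat 5, with the others between 114 and 142 CPM. Adk was 94.2 CPM in the same control rat 5, with the others between 63.4 and 74.9 CPM. Rats 5 and 8 are those with hindbrain Hox RNA. Adk was 36.3 CPM in withdrawal rat 13, with the others between 53.2 and 62.7 CPM, and Ada was 3.78 CPM in that rat, with the others between 1.27 and 2.18 CPM. Rat 13 is the one with pineal RNA. Slc29a1 was 46.0 CPM in chronic ethanol rat 7, with the others between 23.4 and 27.0 CPM. The part of other tissue in these values was not tested.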

How the results depend on the processing

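No member was called under any of 28 other settings, which gave 588 values for the 21 changes of the members: 556 kept their direction and 32 turned it. The looser threshold on the adjusted p is among these settings and uses the main fit, so its values could not turn. No paired analysis was possible because rat numbers differ between the groups in the labels, with none in common. The first index as a term joins withdrawal to control only through chronic ethanol rats 7 and 8. With that term, the change in withdrawal against control was 0.24 for Adora1 and 0.40 for Slc29a1. Without rats 5, 8, 13 and 17 it was 0.14 for Adora1 and -0.24 for Ada in withdrawal against control, and 0.069 for Adora1 and -0.32 for Ada in withdrawal against chronic ethanol; there Ada was also -0.0019 with no filter and -0.059 with limma-voom. Without these 4 rats Gda was -0.10 in withdrawal against control, and without withdrawal rat 13 it was -0.022. The cause was not tested. Leaving out each rat in turn, the change ranged in withdrawal against control between -0.15 and 0.10 for Adora1 and -0.18 and 0.36 for Ada, with Nt5e between 0.40 (without rat 13) and 0.76, Adk between -0.41 and -0.27 and Gda between -0.022 and 2.36. In chronic ethanol against control it ranged between -0.079 and 0.23 for Adora1, -0.098 and 0.067 for Nt5e and -0.020 and 0.36 for Ada. In withdrawal against chronic ethanol it ranged between -0.22 and 0.024 for Adora1, -0.12 and 0.079 for Adora2a and -0.26 and 0.11 for Ada, with Nt5e between 0.42 and 0.78. All 6 withdrawal rats had less Adk than any control also with RLE factors and with total counts, 2 scalings chosen after seeing the data. Over all genes, calls in chronic ethanol against control were 1 at an adjusted p under 0.10 and 2 with the first index as a term, with only the 2 groups in the fit, or with limma-voom; withdrawal against chronic ethanol had 83 at an adjusted p under 0.10. Leaving out each rat in turn gave 0 to 4 calls in chronic ethanol against control, 0 to 2 in withdrawal against control and 0 to 24 in withdrawal against chronic ethanol.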
